A study of Mus musculus with 3 samples.

Results

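Heat shock proteins and chaperonins are the proteins that fold, refold and sort other proteins. Their transcripts were followed in single brain immune cells of 3 mouse lines. The genes were taken by symbol from the rows of the count files: every Hspa, Hspb, Hsp90 and Dnaj gene, Cct2 to Cct8, Hspd1, Hspe1, Hsph1 and Tcp1. This gave 73 of the 15338 genes listed in any of the files, and 60 of the 73 had at least 5 CPM, which is UMIs of the gene per 1000000 UMIs of those cells, over all kept cells. These are called members here. Over all genes, 9689 met the same minimum. A UMI, or unique molecular identifier, tags 1 captured transcript. The member closest above the minimum was Hspa4l at 5.74 CPM, and the gene closest below it was Dnajc27 at 4.84 CPM. The 13 genes under the minimum were Hspa1a, Hspa1b, Hspa1l, Hspa2, Hspa12a, Hspb1, Hspb6, Hspb9, Dnajb3, Dnajb7, Dnajb13, Dnajc27 and Cct6b, at 0.0368 to 4.84 CPM.

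The study asked how the 2 splice forms of human CD33, a sialic acid-binding inhibitory receptor of myeloid cells, act in microglia. The Control library was male wild type, the hCD33M library male with the long human form and the hCD33m library female with the short human form, all from brains of 8-week-old C57BL/6 mice. The study's results state that cells of male mice were pooled by genotype for the first of its single-cell experiments. For the second, described here, the labels and methods leave pooling unstated, and the human transcripts themselves were not analysed here. Both transgenes sat behind a loxP-flanked stop in the Rosa26 locus and were released by Cx3cr1-Cre, which acts in microglia and in other cells that have used Cx3cr1. The labels do not say whether the Control mice carried Cx3cr1-Cre, as the wild-type mice of the study's phagocytosis assays did. There was 1 library per genotype, so differences between genotypes have no replicate check, and the genotype hCD33m, the female sex and that library cannot be told apart. Brains were perfused and stored with Actinomycin D and Triptolide, which block transcription, and Anisomycin, which blocks translation, and the sort took cells bearing CD11b, CD45 and Cx3cr1.

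The files held 3482 barcodes and 21529542 UMIs for Control, 5100 and 28387611 for hCD33M, and 5707 and 32572995 for hCD33m. Of these, 3412, 5046 and 5612 cells with over 200 and under 8000 genes and at most 10% mitochondrial UMIs were kept, at a median of 5437, 5079 and 5137 UMIs. Pairs of libraries shared 7 to 10 barcodes. Clustering without the members, sex-linked and early response genes gave 2996, 4551 and 4891 microglia-like cells, 83, 100 and 126 cells like border-associated macrophages (BAM-like) and 18, 23 and 28 monocyte-like cells. The microglia-like cells carried 3240 to 3464 CPM of P2ry12, a microglial receptor. The BAM-like cells carried 1150 to 1537 CPM of Mrc1 but also 1605 to 2180 CPM of P2ry12. The other 315, 372 and 567 cells formed a pair of low-UMI clusters and were left unnamed.

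As background, HSP70 proteins bind unfolded stretches of protein in a cycle driven by ATP. J proteins, the products of the Dnaj genes, bring them clients and start that cycle, while HSP110 proteins and the HSP70-binding partner Hspbp1 exchange the bound nucleotide. HSP90 proteins hold late folding intermediates such as kinases and steroid receptors. TRiC is a ring of Tcp1 and the Cct subunits that folds actin and tubulin, and Hspd1 with its lid Hspe1 is the ring of the mitochondrial matrix. The endoplasmic reticulum has its own set, with Hspa5 (BiP) and Hsp90b1 (GRP94) at its head. Heat and other proteotoxic stress drive many cytosolic members through the heat shock factor HSF1, and unfolded protein in the endoplasmic reticulum drives Hspa5, Hsp90b1 and their partners through ATF6 and XBP1.

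Microglia-like cells expressed a broad constitutive set of chaperones and very little of the classical inducible HSP70. The 60 members together made up 6443 CPM in Control, 6370 CPM in hCD33M and 6616 CPM in hCD33m. The UMIs count the 3′ ends of transcripts and were not scaled by transcript length. The highest level was that of Hsp90b1, the HSP90 of the endoplasmic reticulum, at 971, 987 and 938 CPM in Control, hCD33M and hCD33m. Hspa5 followed at 615, 613 and 724 CPM, and the cytosolic HSP90 Hsp90ab1 at 603, 566 and 645 CPM. Hspa8, the constitutive cytosolic HSP70, stood at 491, 471 and 529 CPM. These 4 genes were the highest in each library, but in Control the exact 95% counting intervals of Hspa5 (604 to 626 CPM) and Hsp90ab1 (592 to 614 CPM) overlapped.

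The inducible partners were scarcer. Hsp90aa1, the stress-inducible HSP90, was at 162, 166 and 180 CPM, and Dnaja1, a J protein partner of Hspa8, at 140.5, 138 and 175 CPM. Dnajb1 (HSP40), the J protein of the heat shock response, was at 29.5, 32.9 and 44.6 CPM, and Hsph1 (HSP110) at 6.93, 7.35 and 9.96 CPM. All 4 of these were highest in the hCD33m library. Among the mitochondrial members, Hspe1 was at 169, 170.0 and 170.1 CPM, Hspd1 at 85.5, 82.5 and 75.3 CPM, and the mitochondrial HSP70 Hspa9 at 63.3, 62.5 and 55.9 CPM. The 7 measured TRiC subunits lay close together, from 72.2 to 129 CPM over all libraries, with Tcp1 at 82.0, 80.2 and 72.2 CPM. The 2 members named as small heat shock proteins were Hspb3, at 50.7, 55.5 and 54.1 CPM, and Hspb11, a part of the intraflagellar transport machinery, at 13.4, 13.3 and 13.1 CPM, while Hspb1 (HSP25), the best known of the family, was under the minimum at 0.573, 0.452 and 0.610 CPM.

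**Figure D1:**
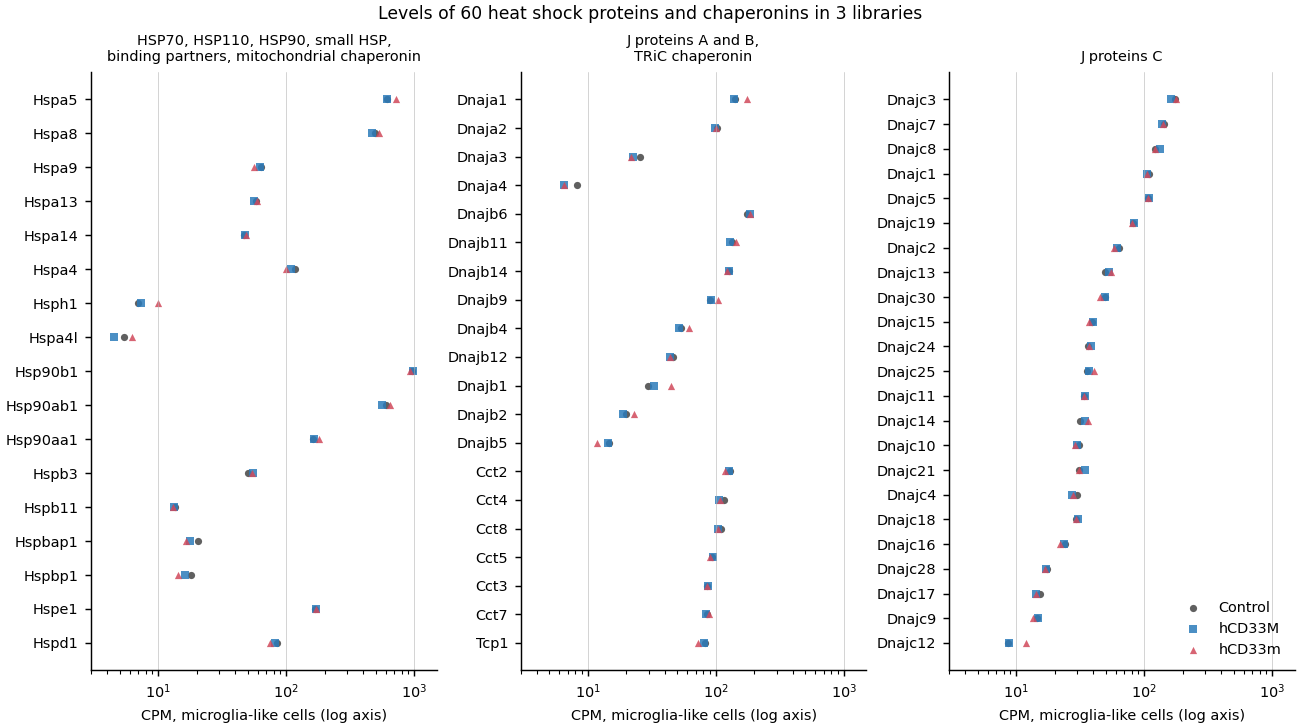
Level of each of the 60 members in microglia-like cells, in CPM on a log axis, with 1 point per library (circle Control, square hCD33M, triangle hCD33m) and members ordered by family and Control level. For most members the 3 points overlap, while Dnajb1, Hsph1, Dnaja1, Hspa5 and Dnajc12 have the hCD33m point to the right.

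The members' promoters were read to show which of them carry the elements named after these 2 stress responses. RefSeq promoter windows of build GRCm38.p6, from 250 bases before to 50 bases after the start, were found for 48 of the 60 members. The heat shock element was searched as 3 units, GAANNTTCNNGAA or TTCNNGAANNTTC, and as 2 units, GAANNTTC or TTCNNGAA, which together cover both strands, lie inside any match of 3 units and can overlap each other. A match of 3 units was found in 4 of the 48 members (Hsph1, Dnajb6, Hspd1 and Hspe1, 8.33%) and in 179 of 27025 genes (0.662%). A match of 2 units was found in 11 of the 48 (22.9%) and in 17.0% of all genes, and among the 7 stress-inducible members with a window it was found in Hsph1, Dnaja1, Dnajb4, Hspd1 and Hspe1. The matches of Hspd1 and Hspe1 are the same bases read from each strand, so these members are not independent in either count. The endoplasmic reticulum stress element, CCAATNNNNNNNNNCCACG on either strand, was found in Hspa5, Hsp90b1 and Dnajc3, which are 3 of the 7 members of the endoplasmic reticulum list with a window, and in 37 of 27025 genes (0.137%). A match is a description of letters and not a measurement of binding.

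Shown here are stretches upstream of the start, 5′ to 3′ on the gene's own strand, with the matched letters in capitals. They are from members discussed in the comparisons and from Dnajb6, which has a 3-unit match but is not discussed there. The Hspe1 stretch (chr1:55088038-55088147, plus strand) is the head-to-head promoter that Hspe1 shares with Hspd1, and its matches overlap into 1 run. The Dnajb6 stretch is chr5:29735818-29735897 on the plus strand, the Dnaja1 stretch chr4:40722318-40722387 on the plus strand and the Dnajb4 stretch chr3:152193846-152193905 on the minus strand. The 3-unit match of Hsph1 lay after its start and is not printed.
Hspe1: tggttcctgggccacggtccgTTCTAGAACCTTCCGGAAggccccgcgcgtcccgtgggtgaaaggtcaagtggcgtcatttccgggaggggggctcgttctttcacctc
Dnajb6: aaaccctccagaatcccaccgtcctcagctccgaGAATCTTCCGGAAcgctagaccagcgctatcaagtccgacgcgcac
Dnaja1: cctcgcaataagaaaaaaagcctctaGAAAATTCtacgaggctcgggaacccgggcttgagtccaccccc
Dnajb4: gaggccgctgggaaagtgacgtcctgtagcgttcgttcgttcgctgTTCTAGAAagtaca

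The endoplasmic reticulum stress elements lay 65 bases before the start of Hspa5, 105 before that of Dnajc3, and 212 and 107 before that of Hsp90b1, the latter on the opposite strand. The stretches are chr2:34771970-34772089 (plus strand) for Hspa5, chr14:118937812-118937871 (plus strand) for Dnajc3 and chr10:86705525-86705664 (minus strand) for Hsp90b1.
Hspa5: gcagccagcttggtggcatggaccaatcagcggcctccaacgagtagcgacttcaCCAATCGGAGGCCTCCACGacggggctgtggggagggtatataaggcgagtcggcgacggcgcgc
Dnajc3: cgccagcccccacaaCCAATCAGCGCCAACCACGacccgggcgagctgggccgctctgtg
Hsp90b1: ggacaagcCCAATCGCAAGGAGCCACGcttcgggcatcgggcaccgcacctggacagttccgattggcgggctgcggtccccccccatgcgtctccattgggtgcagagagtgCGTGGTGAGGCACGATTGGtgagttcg

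Between genotypes, 59 of the 60 members differed by less than 1.5 times in every pair of libraries, and 8 of 9 stress-inducible members were higher in hCD33m than in Control. Across all 60 members the median log2 ratio of CPM was -0.02 for hCD33m over Control, -0.02 for hCD33M over Control and -0.01 for hCD33m over hCD33M, beside medians of -0.00073, 0.01 and -0.02 over all genes. Only Dnajb1 was at least 1.5 times apart in any pair, higher in hCD33m than in Control, where 2.18% of all genes were that far apart, 1.1% higher and 1.07% lower. No member was at least 1.5 times apart between hCD33M and Control, where 1.24% of all genes were (0.805% higher and 0.433% lower), or between hCD33m and hCD33M, where 1.82% were (0.805% higher and 1.01% lower). The pairs share libraries and are not independent. Intervals given with ratios are exact 95% binomial intervals and cover counting error only. They hold no spread between mice.

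Of the 12 stress-inducible genes listed, which are known targets of HSF1, 9 were members. Their median log2 ratio was 0.19 for hCD33m over Control, with 8 of 9 above 0, where 49.9% of all genes were above 0. The intervals of 2 of the 8, Hspe1 and Hspa4l, include 0. It was -0.02 for hCD33M over Control, with 4 of 9 above 0 beside 54.1% of all genes, and 0.26 for hCD33m over hCD33M, with 8 of 9 above 0 beside 45.2%. The list was written with earlier results of these data known, so its direction is not independent evidence. Summed over the 9 members, the level was 1144 CPM in Control, 1123 CPM in hCD33M and 1251 CPM in hCD33m. The log2 ratio of these sums for hCD33m over Control was 0.13 (0.11 to 0.15).

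Dnajb1 had the largest ratio of all members, 0.60 (0.45 to 0.74) for hCD33m over Control and 0.44 (0.31 to 0.56) for hCD33m over hCD33M, with 0.16 (0.0022 to 0.31) for hCD33M over Control. Hsph1 came next at 0.52 (0.22 to 0.83), from 133, 195 and 294 UMIs in Control, hCD33M and hCD33m. Dnaja1, whose interval was narrower, was at 0.31 (0.25 to 0.38) over Control and 0.34 (0.28 to 0.40) over hCD33M. Dnajb4, a further J protein partner of HSP70, was at 0.19 (0.08 to 0.30) over Control and 0.26 (0.16 to 0.36) over hCD33M. Hsp90aa1 was at 0.15 (0.09 to 0.21) over Control and Hspa8 at 0.11 (0.07 to 0.15). Hspd1 went the other way at -0.18 (-0.28 to -0.09), and its neighbour across the shared promoter, Hspe1, was at 0.01 (-0.06 to 0.07).

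The higher level of these members in hCD33m stood beside a higher level of the early response genes. Fos and Fosb were at 208 and 138 CPM in hCD33m, against 87.3 and 52.0 CPM in Control and 63.4 and 51.3 CPM in hCD33M. In Fos-negative cells, which had no Fos or Fosb UMI after thinning to 2000 UMIs, all UMIs together still gave 36.6, 27.6 and 63.4 CPM of Fos and 26.0, 24.7 and 51.1 CPM of Fosb, again highest in hCD33m. In these cells the log2 ratio of the summed stress-inducible members was 0.12 (0.09 to 0.14) for hCD33m over Control and that of Dnajb1 was 0.60. In clusters 0 and 1 alone, the largest microglia-like clusters, the same values were 0.12 (0.09 to 0.15) and 0.59. Of the 9 members, 8 were above 0 for hCD33m over Control in Fos-negative cells, 6 in clusters 0 and 1, 5 in BAM-like cells and 7 in monocyte-like cells. In the same order, 49.98%, 48.8%, 49.8% and 53.6% of all genes were above 0. The count of 5 of 9 in BAM-like cells was therefore close to the share of all genes. The summed ratio was 0.19 (0.08 to 0.29) in BAM-like cells and 0.20 (-0.02 to 0.42) in monocyte-like cells, the latter from 46 cells of these 2 libraries. In monocyte-like cells the sum was highest in hCD33M, at 1764, 2236 and 2022 CPM in Control, hCD33M and hCD33m, with 0.34 (0.14 to 0.55) for hCD33M over Control. At clustering resolution 1.0, 13, 19 and 7 cells were monocyte-like. A further cluster led by Ear2, with no class name, held 5, 4 and 21 cells, so the make-up of the class may differ between libraries. Its part in these ratios was not tested.

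The classical inducible HSP70 pair, Hspa1a and Hspa1b, was too scarce to be a member but had the widest ratio. The genes lie next to each other on chromosome 17 (Hspa1b at chr17:34956436-34959238, Hspa1a at chr17:34969190-34972156, both on the minus strand of GRCm38) and are near-identical, so the split of UMIs between them is uncertain and they were summed. Microglia-like cells held 4 UMIs of the pair in Control, 10 in hCD33M and 78 in hCD33m, or 0.208, 0.377 and 2.64 CPM. The log2 ratio for hCD33m over Control was 3.66 (2.25 to 5.58). In hCD33m, the 52 Hspa1a UMIs came from 37 of 4891 microglia-like cells, at most 4 from 1 cell, and 14 of these 37 cells were Fos-high. BAM-like cells held 0, 1 and 13 UMIs of the pair and monocyte-like cells 0, 0 and 4, again with the most in hCD33m. In the Fos-negative microglia-like cells the counts were 3, 9 and 34, and in the Fos-high cells 0, 0 and 26. In hCD33m this was 5.96 CPM in Fos-high and 1.78 CPM in Fos-negative cells, a difference that was not tested.

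Among the 8 chaperones listed for the endoplasmic reticulum, 5 were above 0 for hCD33m over Control, beside 49.9% of all genes, with a median of 0.02. For hCD33M over Control 2 of 8 were above 0, beside 54.1% of all genes, with a median of -0.05. The list is partial. It leaves out Dnajb14, a J protein of the endoplasmic reticulum membrane, at -0.05 (-0.12 to 0.02) for hCD33m over Control. Hspa5 was higher in hCD33m than in both other libraries, at 0.24 (0.20 to 0.27) over Control and 0.24 (0.21 to 0.27) over hCD33M. Dnajb9 (ERdj4), a J protein partner of Hspa5, was at 0.21 (0.12 to 0.30) over Control, and Dnajb11 (ERdj3), a further partner, at 0.09 (0.02 to 0.16). Hsp90b1 and Dnajc3, whose promoters carry the same element as Hspa5, were at -0.05 (-0.08 to -0.02) and 0.01 (-0.05 to 0.07).

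The mitochondrial members were slightly lower in hCD33m, with 7 of 8 below 0 over Control and a median of -0.11, beside 4855 of 9689 genes below 0. The intervals of Dnajc11, Dnajc15 and Dnajc19 include 0. For hCD33M over Control 3 of 8 were below 0, beside 4443 of 9688 genes, with a median of 0.01. For hCD33m over Control, Hspa9 was at -0.18 (-0.29 to -0.07) and Dnaja3, its J protein partner, at -0.21 (-0.38 to -0.04). Of the 7 TRiC subunits, 5 were below 0 in each comparison with Control, 4 of them (Cct2, Cct4, Cct8 and Tcp1) in both, with medians of -0.08 and -0.03. These counts stand beside the same 4855 of 9689 and 4443 of 9688 genes below 0. Tcp1 was the lowest for hCD33m over Control at -0.18 (-0.28 to -0.09) and Cct7 the highest at 0.05 (-0.04 to 0.14), while Cct4 was the lowest for hCD33M at -0.13 (-0.21 to -0.05). Hspbp1, the HSP70-binding partner, was lower in hCD33m, at -0.34 (-0.55 to -0.13), and Hspbap1, named for binding a small heat shock protein, at -0.32 (-0.52 to -0.12) over Control, from 14.3 to 20.5 CPM in the 3 libraries. For hCD33M over Control they were at -0.16 (-0.37 to 0.04) and -0.22 (-0.41 to -0.02). For hCD33m over hCD33M both intervals include 0, so the shift was not particular to hCD33m.

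Dnajc12, a J protein that assists the aromatic amino acid hydroxylases, was at 8.60, 8.86 and 11.9 CPM, with a log2 ratio of 0.47 (0.20 to 0.74) for hCD33m over Control. Dnajb5 was at 14.6, 14.4 and 11.7 CPM, with -0.32 (-0.55 to -0.09). Dnaja4 was at 8.23, 6.49 and 6.51 CPM, lower in both transgenic libraries than in Control, with -0.34 in each. Hspa4, an HSP110 protein of the cytosol, was at 117, 109 and 99.8 CPM, with -0.23 (-0.31 to -0.15) for hCD33m over Control. Hspa4l, which spans the minimum, was at 5.37, 4.52 and 6.23 CPM and had the lowest HSP110 ratio for hCD33M over Control, -0.25 (-0.64 to 0.15), an interval that includes 0. Within the DNAJC family, Dnajc21, a J protein of ribosome maturation, was highest for hCD33M over Control at 0.17 (0.02 to 0.33) and lowest for hCD33m over hCD33M at -0.17 (-0.30 to -0.03), so its highest level was in the hCD33M library. At the other end of that family, Dnajc16 was lowest for hCD33m over Control at -0.14 (-0.31 to 0.03) and Dnajc4 for hCD33M over Control at -0.13 (-0.29 to 0.03), intervals that include 0. Hspb3 was at 0.09 (-0.02 to 0.21) and 0.13 (0.01 to 0.25) over Control in hCD33m and hCD33M.

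**Figure D2:**
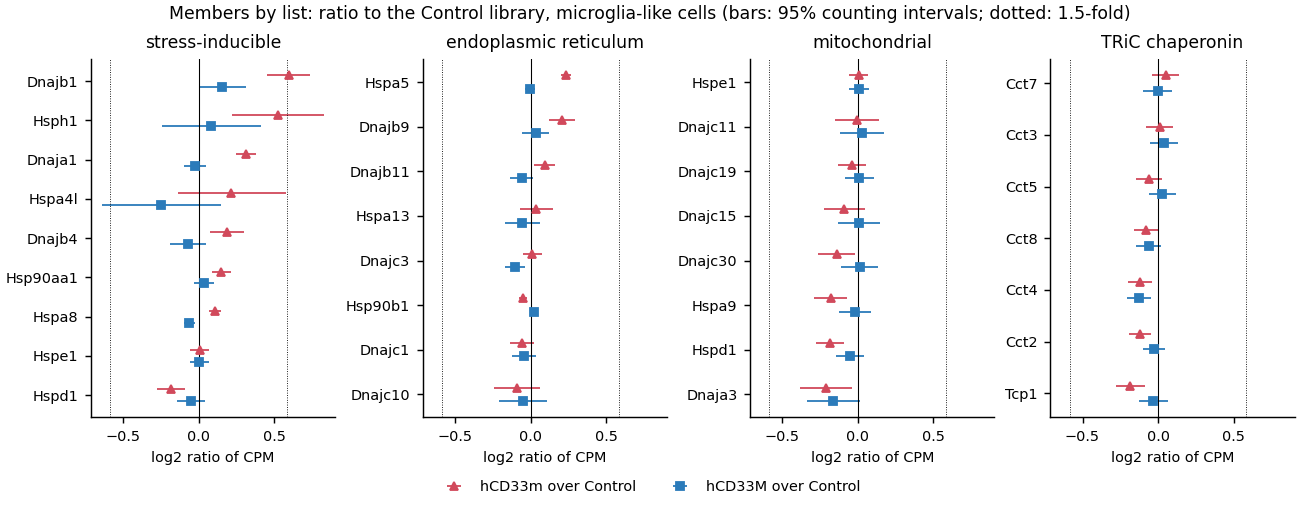
Log2 ratio of CPM to the Control library in microglia-like cells, for hCD33m (triangles) and hCD33M (squares), by list. Bars are exact 95% counting intervals and dotted lines mark 1.5-fold. In the stress-inducible panel 8 of 9 hCD33m points lie right of 0 and Dnajb1 reaches the dotted line, while the hCD33M points in that panel run from -0.25 to 0.16.

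Of 36 co-chaperones and heat shock factors listed beside the members, 35 had at least 5 CPM. Their median log2 ratio was -0.01 for hCD33m over Control, with 15 above 0 and 20 below, where 49.9% of all genes were above 0. It was -0.03 for hCD33M over Control. Only Fkbp5, an HSP90 co-chaperone of steroid receptors, was at least 1.5 times higher in hCD33m than in Control, beside 1.1% of all genes. It was at 35.0, 44.0 and 54.8 CPM, with a ratio of 0.65 (0.52 to 0.78). Among the others, Ahsa2 was at 0.45 (0.24 to 0.66) and Bag4 at 0.25 (0.08 to 0.42). Stub1 was at -0.24 (-0.33 to -0.15) and Ahsa1 at -0.23 (-0.33 to -0.12). Hsf1 itself was at 40.03, 38.7 and 38.4 CPM, and Bag3, a partner of HSP70 in autophagy and an HSF1 target, at 17.3, 17.3 and 18.7 CPM. The level of Hsf1 transcript does not report the activity of the factor.

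Fos-high and Fos-negative microglia-like cells were then compared within each library, since the share of Fos-high cells differed between libraries. It was 5.97% for Control, 4.77% for hCD33M and 14.3% for hCD33m, whose exact (Clopper-Pearson) 95% intervals reach from 5.14 to 6.88%, from 4.16 to 5.43% and from 13.3 to 15.3%. These intervals treat the cells of a library as independent and hold no spread between mice. Fos-high cells had at least 2 Fos and Fosb UMIs and Fos-negative cells had none after each cell was thinned to 2000 UMIs, which left out 31, 40 and 55 shallower cells. There were 177, 215 and 690 Fos-high and 2431, 3762 and 3208 Fos-negative cells, with median depths of 5255 to 5653 and 5172 to 5550 UMIs. No member passed the test. The edgeR quasi-likelihood test on the 3 Fos-high and 3 Fos-negative sums, with the library as a block, called 0 of 60 members at an adjusted p of 0.05, while 0.464% of 9688 genes were called higher and 0.0103% lower. Without adjustment 7 of 60 members (11.7%) had a p under 0.05, beside 6.46% of all genes, and DESeq2 called 0 members, with 2 of 60 under 0.05. The median log2 fold change of the members was -0.01 and their median standard error 0.09. With 3 libraries that are also the 3 genotypes, p-values measure only the spread between these libraries.

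None of the 9 stress-inducible members passed the edgeR test between Fos states, and their fold changes ran from below 0 to that of Dnajb4. Dnajb1 was at 33.2, 27.4 and 49.2 CPM in Fos-high cells of Control, hCD33M and hCD33m and at 29.2, 33.1 and 44.4 CPM in Fos-negative cells, so it was higher in 2 libraries and lower in the third. Its log2 fold change was 0.08 (SE 0.11, edgeR adjusted p = 0.966). Dnaja1 was at 152, 146 and 178 against 139.9, 138 and 173 CPM, slightly higher in all 3, with a log2 fold change of 0.07 (SE 0.05, adjusted p = 0.904). Hspa8 was at 471, 480.1 and 561 against 491, 472 and 522 CPM, with 0.05 (SE 0.04, adjusted p = 0.917). Hsph1 was at 12.8, 3.92 and 11.9 against 6.57, 7.29 and 10.2 CPM, with log2 ratios of 0.96 (0.07 to 1.75) in Control and -0.90 (-2.54 to 0.36) in hCD33M, and a log2 fold change of 0.23 (SE 0.22, adjusted p = 0.937). The log2 ratio of Dnajb1 for hCD33m over Control was 0.57 (0.07 to 1.10) within the Fos-high cells and 0.60 (0.44 to 0.77) within the Fos-negative cells.

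The member nearest to the threshold was Dnajb4, whose promoter holds a 2-unit match 14 bases before a start. It was at 57.9, 66.6 and 71.0 CPM in Fos-high cells and at 53.6, 49.2 and 56.9 CPM in Fos-negative cells, higher in all 3 libraries, with a log2 fold change of 0.31 (SE 0.08, adjusted p = 0.0882, edgeR). When only genes with at least 20 CPM were tested it passed. Over all members, 9 of 60 were higher in all 3 libraries and 13 of 60 lower in all 3, against 12.4% and 15.3% of all genes. Hsp90b1 was lower in all 3, at 944, 911 and 879 against 974, 988 and 948 CPM, but by only -0.09 (SE 0.03, adjusted p = 0.254, edgeR). Dnajc28, a little studied J protein, had the lowest fold change, -0.49 (SE 0.18, adjusted p = 0.437), with 8.51, 19.6 and 11.5 CPM against 17.6, 17.0 and 18.2 CPM, so the hCD33M library went the other way. Without that library Dnajc28 passed the threshold. For 1 of the 60 members, Hsp90aa1, libraries had intervals on opposite sides of 0, beside 0.681% of all genes.

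**Figure D3:**
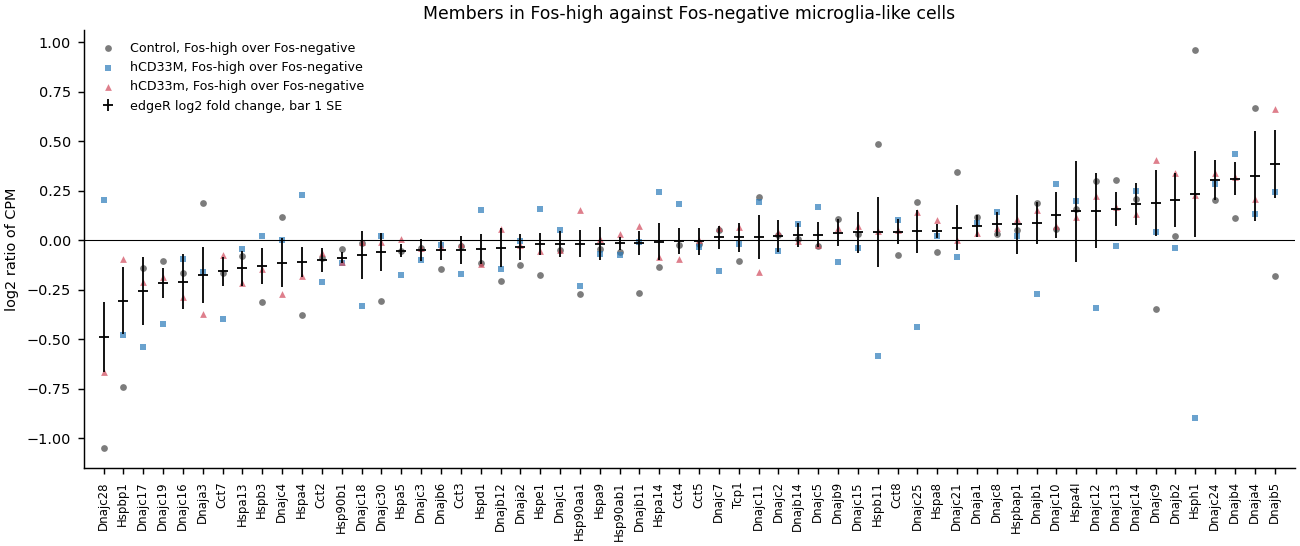
Log2 ratio of CPM in Fos-high over Fos-negative microglia-like cells for each of the 60 members, ordered by the edgeR log2 fold change (black dash, bar 1 standard error), with 1 coloured point per library. The libraries scatter around 0 for most members, and Dnaja4, Dnajb4 and Dnajc24 near the right end have all 3 points above 0.

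Cell classes were then set side by side. For each member the UMIs of a class were set against those expected if the class had the level of the microglia-like cells of the same library, and intervals are exact Poisson intervals for counting error only. A class defined from the same cells gives no test, although the members took no part in the clustering. A member was counted as higher or lower where it was at least 1.5 times apart in the same direction in all 3 libraries.

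In the 69 monocyte-like cells Hspa8 was higher and most of the listed endoplasmic reticulum chaperones lower than in microglia-like cells. Of the 60 members, 3 were higher and 15 lower by this count, where 8.28% of all genes were higher and 28.6% lower. The median log2 ratio of all genes was -0.59, so many genes are lower on this scale, and with TMM scaling, which removes most of that shift, 6 members were higher and 9 lower. Hspa8 was at 1181, 1507 and 1183 CPM in monocyte-like cells of Control, hCD33M and hCD33m, above every microglia-like value of 471 to 529 CPM. Its UMIs, 812 against 307 expected, gave a log2 ratio of 1.40 (1.30 to 1.5). Cct5, a TRiC subunit, was at 171, 205 and 165 CPM against 89.96 to 95.7 CPM, with 0.97 (0.69 to 1.23), which made it 1 of 7 TRiC subunits past 1.5-fold, and 5 of the 7 were higher in all 3 libraries by any amount, beside 16.6% of all genes. The third was Hspb11, with 22 UMIs against 8.22 expected.

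Against this, 5 of the 8 listed endoplasmic reticulum members were at least 1.5 times lower in monocyte-like cells of all 3 libraries, and 7 of the 8 were lower by any amount, beside 51.4% of all genes. Hspa5 was at 211, 352 and 299.6 CPM against 613 to 724 CPM, with a log2 ratio of -1.14 (-1.35 to -0.93). Hsp90b1 was at 399.5, 352 and 579 CPM against 938 to 987 CPM, likewise -1.14 (-1.32 to -0.97). Dnajb9 was lower still, with 11 UMIs against 58.9 expected, a ratio of -2.42 (-3.42 to -1.58), Hspa13, a microsomal HSP70, had 10 against 35.7, and Dnajc1, a J protein of the endoplasmic reticulum membrane, had 28 against 66.0. Outside the endoplasmic reticulum, Hspa9 had 14 UMIs against 37.6 and Dnajb4 had 13 against 34.2. Dnajb2, Dnajc12, Dnajc16, Dnajc18, Dnajc25, Dnajc28 and Hspbap1 were also lower but rested on 12 UMIs or fewer each.

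Hspb3 was lower in monocyte-like cells of all 3 libraries by the 1.5-fold count, and in BAM-like cells of hCD33M and hCD33m but not of Control. This small heat shock protein, known from muscle, lies at chr13:113662896-113663676 on the minus strand of GRCm38. It was at 50.7, 55.5 and 54.1 CPM in microglia-like cells. The monocyte-like cells held 2 UMIs of it where 33.3 were expected, a log2 ratio of -4.06 (-7.10 to -2.20). BAM-like cells were at 43.5, 16.1 and 29.2 CPM, below the microglia-like level of each library, with 104 UMIs where 185 were expected and a ratio of -0.83 (-1.13 to -0.56). P2ry12 was at 2180, 1605 and 1943 CPM in the same BAM-like cells, highest in the library where Hspb3 was highest, and its part in the Hspb3 level was not tested.

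Over all BAM-like cells, only Hspa4l was at least 1.5 times higher in all 3 libraries, at 10.6, 12.9 and 10.6 CPM against 4.52 to 6.23 CPM, and none was lower by this count, where 2.95% of all genes were higher and 2.32% lower. Its UMIs numbered 39 against 19.1 expected, a ratio of 1.03 (0.54 to 1.48). As in monocyte-like cells, 7 of the 8 listed endoplasmic reticulum members were lower in all 3 libraries by any amount, beside 3941 of 9689 genes. Their median log2 ratio was -0.24, beside -0.15 over all genes, so the shift was smaller than in monocyte-like cells. Hspa5 was at 593, 509 and 688 CPM, with a ratio of -0.11 (-0.18 to -0.05), and Hspa8 at 506, 477 and 603 CPM, with 0.11 (0.04 to 0.17). Chosen after its values were seen, Dnajb14, a J protein of the endoplasmic reticulum membrane outside the list of 8, was at 176, 219 and 198 CPM against 123 to 127 CPM in microglia-like cells. It was higher in all 3 libraries, with a ratio of 0.65 (0.54 to 0.76).

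**Figure D4:**
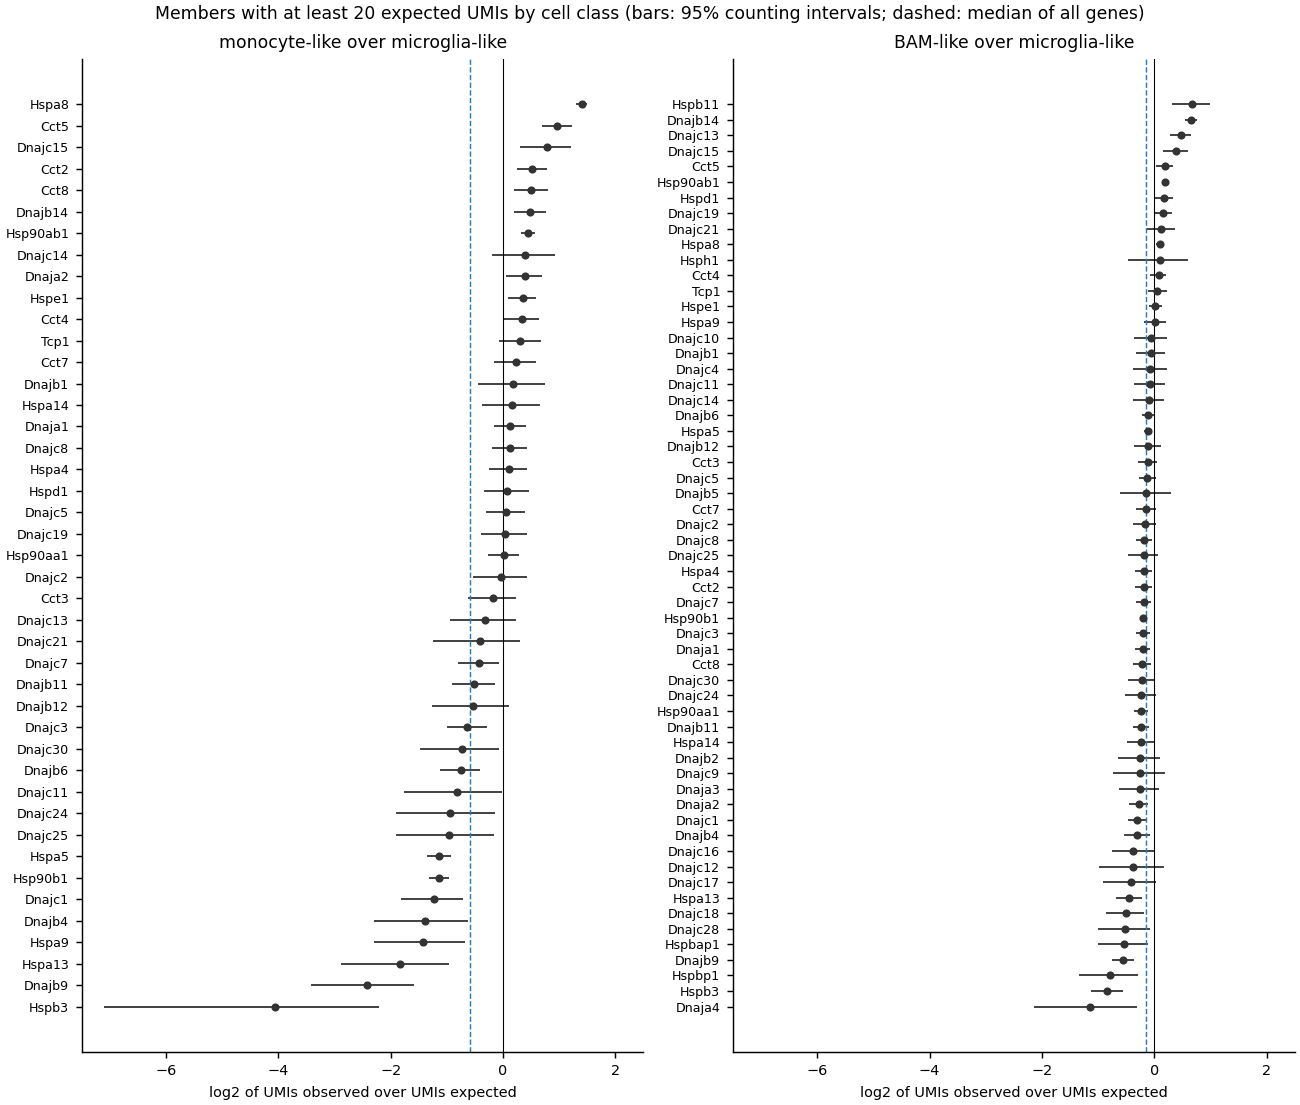
Log2 of UMIs observed over UMIs expected from microglia-like cells of the same library, for monocyte-like cells (left) and BAM-like cells (right), for members with at least 20 expected UMIs. Bars are exact 95% counting intervals and dashed lines the median of all genes. Hspa8 is at the top and Hspb3 at the bottom of the left panel, with Hspa5 and Hsp90b1 in its lower part. Most members lie near 0 in the right panel, with Dnajb14 near its top and Hspb3 near its bottom.

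Within the microglia-like class, members were called no more often than genes in general. In clusters 0, 1, 2, 3, 5 and 7 no member was at least 1.5 times apart from the other microglia-like cells in the same direction in every library. By the same count 0.031%, 0%, 1.12%, 0.0103%, 1.26% and 2.48% of all genes were higher and 0.516%, 0.97%, 0.95%, 0.186%, 0.433% and 5.85% lower. These clusters were led by Hist1h2ac, Crybb1, Ccl4, Cdk5r1, Ifit3 and Cst7, and the last held no Control cell. In cluster 10, led by Top2a and Mki67, genes of the cell cycle, 12, 19 and 12 cells gave 3 of 60 members higher and 1 lower, no larger a share than the 5.32% of all genes that were higher and the 4.19% lower. Dnajc9, a J protein that also chaperones histones, was at 194, 113 and 158 CPM against 12.8 to 14.2 CPM in the other cells, with 53 UMIs against 4.83 expected and a log2 ratio of 3.46 (3.04 to 3.84). Hsp90aa1 was at 273, 433 and 498 CPM against 161 to 178 CPM, a ratio of 1.31 (1.06 to 1.54), and Hspa8 at 751, 965 and 908 CPM against 468 to 528 CPM, a ratio of 0.85 (0.69 to 1.01). The lower member, Dnajc28, had 2 UMIs. Cct2 reached 285, 177 and 182 CPM against 118 to 128 CPM, and the median ratio of the 7 TRiC subunits was 0.56 beside 0.0018 for all genes. Of these 7 subunits, 0 were at least 1.5 times higher in every library.

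**Figure D5:**
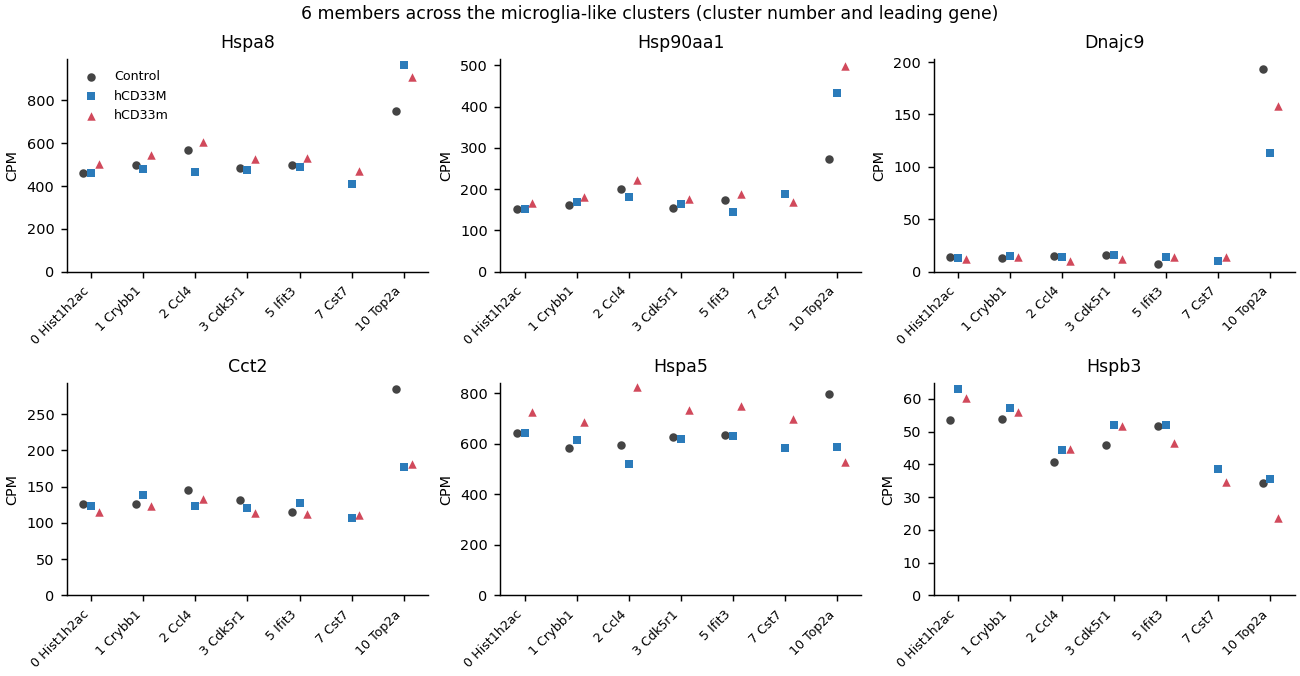
Level of 6 members in CPM (linear axes from 0) in each microglia-like cluster, named by number and leading gene, with 1 point per library (circle Control, square hCD33M, triangle hCD33m). Hspa8, Hsp90aa1, Dnajc9 and Cct2 are highest in cluster 10, Hspa5 is so in Control alone and Hspb3 in no library, and cluster 7 has no Control point.

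The unnamed clusters 4 and 6, which held few UMIs per cell (medians of 1194 and 1172), had low levels of several members. In cluster 4, led by Gm42418 and Lars2, 15 of 60 members were at least 1.5 times lower than in microglia-like cells in all 3 libraries and 0 were higher, where 14% of all genes were lower and 14.2% higher. Hspe1 was at 52.7, 50.8 and 68.5 CPM there and Dnajb9 at 29.8, 30.9 and 42.5 CPM. In cluster 6, led by Gm26917 and mitochondrial transcripts, 11 of 60 members were lower and 0 higher, where 8.7% of all genes were lower and 2.51% higher, and these included 4 of the 7 TRiC subunits (Tcp1, Cct2, Cct3 and Cct5). Hspa8 was at 158, 192 and 281 CPM in that cluster. In clusters 4 and 6 the median log2 ratio of the members was -0.34 and -0.47, beside 0.08 and -0.13 over all genes.

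From cell to cell, the spread of the members' counts was close to that of genes in general. Over microglia-like cells thinned to 2000 UMIs, the variance-to-mean ratio of UMI counts, which is 1 for pure counting noise, had a median of 1.05, 1.06 and 1.04 over the 33 members with at least 50 CPM, beside 1.04 in each library over 3642 genes. At the low counts left after thinning this ratio lies near 1 even where levels differ between cells. It therefore cannot show that the members do not vary. The ratio also rises with level, so it does not rank members of unlike level by how much they vary. The 5 members with the highest ratio were Hspa5, Hsp90b1, Hsp90ab1, Dnajb14 and Hsp90aa1. Of these, Hsp90b1, Hspa5 and Hsp90ab1 also had the highest levels of all members. Hspa5 was at 1.43, 1.30 and 1.29 and Hsp90b1 at 1.27, 1.26 and 1.23. Hsp90ab1 was at 1.21, 1.23 and 1.248, Dnajb14 at 1.17, 1.18 and 1.16, and Hsp90aa1 at 1.09, 1.15 and 1.13. All of these were below Fos, at 1.62, 1.5 and 2.37.

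The genes of all 60 members were placed on GRCm38 by symbol in GENCODE vM21, on 19 chromosomes. Of these, 15 overlap another annotated gene on the same strand, such as Dnajc14 with Sarnp and Dnajc25 with Gm20503, and 26 overlap a gene on the other strand, so their UMIs could have been split or shared by the authors' counting.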

How the data were processed

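Cells were sorted by flow cytometry and profiled with the 10x Chromium 3′ platform, with 1 library per genotype. Per the study's methods and the labels, the authors aligned reads to mm10 with Cell Ranger, counted UMIs and used Seurat. The deposited values are raw UMI counts per gene and cell, with no normalization, for barcodes with more than 200 genes and genes found in at least 3 cells. Doublets were removed only through the maximum of 8000 genes, and leaving out the top 5% of cells by UMIs was tried instead.

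Here the counts were read with Python 3.11.15. Cells with at most 10% mitochondrial UMIs were clustered (scanpy 1.11.5 for 2000 variable genes, 15 principal components, 20 neighbours, Leiden through igraph 0.11.9 at resolution 0.5) without the members, sex-linked and early response genes. A cluster was named from fixed markers and left unnamed where its median UMI count was under 33.3% of its samples' median. UMIs were summed per library and class and divided by the class total (CPM). Ratios between genotypes carry exact binomial intervals and no test. Depths of 19187753 to 29512527 UMIs in microglia-like cells set their width. Fos states were tested with edgeR 4.0.16 (glmQLFTest, robust, TMM, library as a block), adjusted by Benjamini-Hochberg over 9688 genes, with DESeq2 1.42.0 as an alternative. The edgeR step was tested on simulated data.

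The members, the lists (stress-inducible, endoplasmic reticulum, mitochondrial, co-chaperones) and the tests were chosen with earlier results of these data known. Named were 15 core genes, every member at least 1.5 times apart between libraries and the ends of each family, up to 10 members per direction past the threshold between Fos states or called between classes, and the 5 members with the highest variance-to-mean ratio. The restriction of the microglia-like class to clusters 0 and 1 was chosen after seeing the data. Promoter sequences are RefSeq's (GRCm38.p6).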

Additional observations from a re-analysis of the deposited data

Results flagged for a closer look

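Hsp90aa1 moved in opposite directions with Fos in different libraries. Its log2 ratio of CPM in Fos-high over Fos-negative microglia-like cells was 0.15 (0.04 to 0.26) in hCD33m, but -0.27 (-0.51 to -0.04) in Control and -0.23 (-0.45 to -0.02) in hCD33M, intervals for counting error only. The levels were 199 against 179 CPM in hCD33m, 135 against 163 CPM in Control and 143 against 168 CPM in hCD33M. The difference between the libraries was not tested, since each genotype has 1 library. Hsp90aa1 was the only 1 of 60 members whose libraries had intervals on opposite sides of 0 in the Fos comparison, beside 66 of 9689 genes (0.681%).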

How the results depend on the processing

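Between genotypes, Dnajb1 kept its direction in hCD33m over Control under all 11 other settings tried, at 0.56 to 0.61, and the median of the stress-inducible members stayed between 0.13 and 0.19. Dnajb1 lies at the 1.5-fold limit, so the count of members at least 1.5 times higher, 1 as reported, was 0 over all kept cells, 2 in Fos-negative cells, in cells thinned to 2000 UMIs and without the top 5% of cells by UMIs, and 3 with no minimum level. The count lower, 0 as reported, was 2 with thinned cells and 1 with no minimum. For hCD33m over hCD33M it was 3 higher and 1 lower with no minimum. In the Fos comparison the members called stayed at 0 in each direction except for 1 higher (Dnajb4) among genes with at least 20 CPM and 1 lower (Dnajc28) without hCD33M, a range of 0 to 1 without each library. Genes called numbered 46 with the library block, 0 without it, 22 with DESeq2, 70 with no filter on low counts, 77 with at least 3 Fos and Fosb UMIs, 99 with Fos state set at 4000 UMIs, 14 without Control and 98 without hCD33M. For BAM-like cells, 1 member was higher and 0 lower as reported. The count was 0 higher at resolution 1.0, 2 higher and 3 lower without the top 5% of cells, 3 lower with thinned cells, and 1 to 3 higher (3 without Control) and 1 to 3 lower (1 without hCD33M, 2 without hCD33m) without each library. For monocyte-like cells, 3 higher and 15 lower as reported became 6 and 9 with TMM factors, 9 lower with thinned cells, and 3 to 5 higher (5 without Control) and 16 to 18 lower without each library. The cause of these shifts was not tested. No paired analysis was possible because the labels give 1 library per genotype, which concerns the genotypes alone, as Fos states and cell classes were compared within each library. Depth limits members under about 20 CPM in the small classes, where few UMIs are expected.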
